A study of Mus musculus with 12 samples.

Results

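The circadian clock genes examined here were 10 listed genes that form the core of the daily oscillator or carry its output: Clock, Npas2, Per1, Per2, Per3, Cry1, Cry2, Dbp, Tef and Nfil3. Each gene was read from a probe set with a single gene symbol, and 9 of the 10 had one among the 19938 genes analysed. Npas2 was not analysed here, since no probe set carried its symbol in the annotation used here. Each of the 9 genes had 1 such probe set.

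Transcript levels came from total RNA on 12 Affymetrix mouse arrays, with biological triplicates of 4 groups. The cultured adipocytes had 3 origins: the immortal fibroblast line 3T3-L1, primary mouse embryonic fibroblasts, abbreviated PMEF, and embryonic stem (ES) cells of the mouse. The remaining group was eWAT, which usually stands for epididymal white adipose tissue, of wild-type mice described as healthy. The labels used here give neither strain, age and culture conditions nor the time of day of a harvest, so cell origin, culture and harvest time cannot be told apart. Values are log2 intensities, and array medians over all probe sets lay between 5.84 and 5.98. Levels of different genes are not compared with each other, because they come from different probes. Differences are log2 units ± the standard error of a limma fit to all 12 arrays (n = 3 per group). A call means an adjusted p under 0.05, with Benjamini-Hochberg adjustment across the 19938 genes.

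Markers of fat cells were high on average in each group, with exceptions among them. The 11 measured adipocyte markers averaged 10.41 to 10.44 on the 3T3-L1 arrays, 10.68 to 10.77 on the PMEF arrays, 11.26 to 11.27 on the ES arrays and 11.69 to 11.85 in eWAT (mean log2 intensity). Lep, the gene of the fat hormone leptin, was at 9.96 to 11.14 in eWAT, but at 4.10 to 4.81 on the 3T3-L1, 5.45 to 6.02 on the PMEF and 6.48 to 6.78 on the ES arrays. Cebpa, a transcription factor of fat cell differentiation, had a mean of 7.57 in 3T3-L1 adipocytes and 10.43 in eWAT. Markers of macrophages and of blood vessels were high on average in the tissue, again with exceptions. The 10 macrophage markers averaged 8.94 to 9.97 in eWAT and 5.15 to 5.99 over the cultures, and the 10 endothelial markers averaged 9.17 to 9.37 and 5.24 to 5.89. The macrophage marker Cd68 was higher in 3T3-L1 adipocytes (mean 10.42) than in eWAT (9.49). The endothelial marker Flt1 had means of 9.03 in PMEF adipocytes and 9.13 in eWAT. The 7 lymphocyte markers averaged 5.23 to 5.44 in eWAT and 4.26 to 4.62 over the cultures. The 8 mesothelial markers were lower in eWAT, at 5.22 to 5.38, than in PMEF, at 7.18 to 7.28, and ES adipocytes, at 6.69 to 6.74, and averaged 5.09 to 5.15 in 3T3-L1 adipocytes. In RNA from whole tissue or a mixed culture, fewer cells of a type and less RNA per cell cannot be told apart. For scale, 1027 olfactory receptor genes, taken as a stand-in for background, had a median of 3.68 and a 95th percentile of 5.17. All 9 clock genes lay above that percentile on every array, whereas Lep lay below it on the 3T3-L1 arrays.

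The clock is a loop of transcription factors that most cells carry. CLOCK, or its relative NPAS2, pairs with BMAL1 (the product of Arntl) and activates genes that hold the DNA element called an E-box, among them the Per and Cry genes. PER and CRY proteins then repress that pair. DBP and TEF activate, and NFIL3 represses, genes with a D-box, a second element of the clock. White fat has such a daily rhythm in mice. A cultured line keeps time cell by cell, and a bulk culture shows the rhythm only while its cells are in step.

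Promoter windows (250 bases before to 50 after the start site) were taken from RefSeq on build GRCm38.p6, where 9 of the 10 genes had at least 1 window. Per2 had none and was not searched, while Npas2, which was not measured, was searched. They were searched on both strands for the E-box CACGTG and for the D-box as TTATGTAA or TTACGTAA. The sequences shown belong to genes whose levels were set apart in a group: Per3, the only one of the 9 searched with D-box matches, and Cry1 and Tef, whose windows hold an E-box before the gene. Matches are in capitals, and each run is written 5′ to 3′ along the gene and stops before the annotated gene.
Per3, chr4:151044708-151044915, minus strand: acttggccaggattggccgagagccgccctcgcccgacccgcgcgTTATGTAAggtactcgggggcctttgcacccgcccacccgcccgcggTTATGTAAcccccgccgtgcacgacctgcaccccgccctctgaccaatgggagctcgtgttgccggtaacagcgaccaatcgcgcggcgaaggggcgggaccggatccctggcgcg
Cry1, chr10:85185055-85185304, minus strand: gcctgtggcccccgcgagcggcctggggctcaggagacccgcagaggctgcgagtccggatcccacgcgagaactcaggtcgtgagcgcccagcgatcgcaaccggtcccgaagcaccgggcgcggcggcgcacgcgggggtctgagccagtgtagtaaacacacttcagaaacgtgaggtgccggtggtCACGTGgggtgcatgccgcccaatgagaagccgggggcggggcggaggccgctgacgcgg
Tef, chr15:81802423-81802672, plus strand: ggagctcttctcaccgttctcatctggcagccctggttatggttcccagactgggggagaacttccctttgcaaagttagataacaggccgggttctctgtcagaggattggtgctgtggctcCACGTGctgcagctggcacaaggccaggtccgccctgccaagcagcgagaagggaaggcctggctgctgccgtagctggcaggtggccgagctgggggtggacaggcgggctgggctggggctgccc

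The Per3 window held 2 copies of TTATGTAA, the first bases of which lay at -205 and -158 from the start site. Of all 32851 promoter windows, 1.06% held at least 1 D-box match and 0.0244%, which is 8 windows, held 2 or more. The E-box was found in windows of Per1, Cry1 and Tef, 3 of the 9 genes searched (Npas2 included, Per2 not), and in 8.09% of all 27025 genes with a window. The Per1 match, at -166 of its window, lies within the annotated span of the gene. These matches describe the letters of the windows and show neither binding nor use.

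Of the 4 groups, PMEF adipocytes had the most of these 9 genes set apart, meaning called the same way against each of the other 3 groups. Per3, Dbp and Tef were higher there than in each of the other 3 groups, and Clock, Cry1 and Nfil3 were lower than in each. That is 3 of 9 genes in each direction, where 8.47% and 6.31% of all genes were set apart in PMEF adipocytes as higher and as lower. In 3T3-L1 adipocytes Cry1 and Per1 were set apart as the highest (2 of 9 genes, against 14.5% of all genes) and 0 of 9 as the lowest (8.63% of all genes). In eWAT, Dbp alone of the 9 was set apart, as the lowest (10.3% of all genes). None was set apart in ES adipocytes (6.15% of all genes higher, 3.36% lower). The calls for Per3, Dbp and Tef in PMEF and for Cry1 in both PMEF and 3T3-L1 adipocytes held in all 22 alternative settings. Clock in PMEF held in 18, Nfil3 in PMEF and Dbp in eWAT in 17 each, and Per1 in 3T3-L1 in 9.

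**Figure D1:**
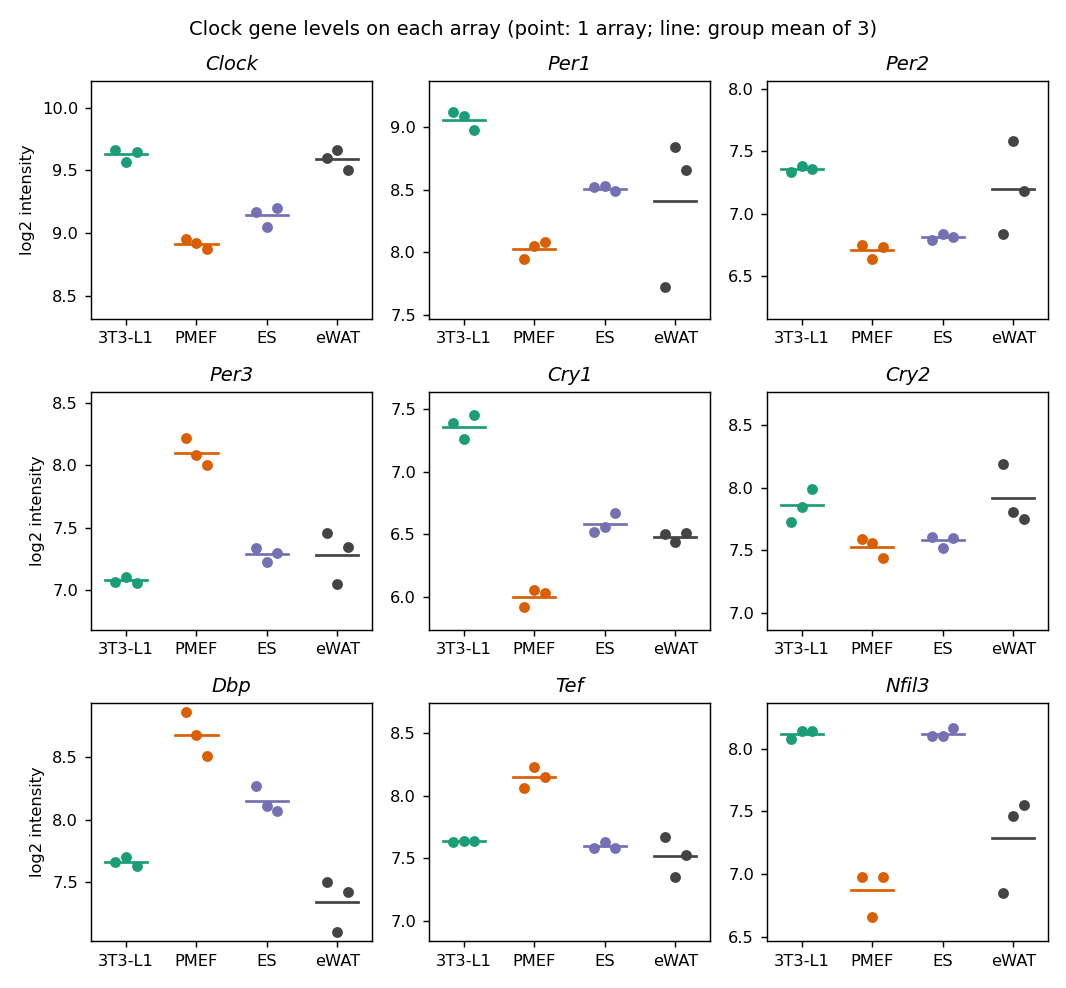
Log2 intensity of the 9 clock genes (y axis, 1 panel per gene, each spanning the same number of log2 units) on the 12 arrays by group (x axis), with points for arrays and lines for means of 3. Per3, Dbp and Tef are highest and Clock, Cry1 and Nfil3 lowest in PMEF adipocytes, and the eWAT points of Per1 run from 7.72 to 8.84.

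Clock encodes the activator that gives the system its name. Its values were 9.66, 9.57 and 9.65 on the 3T3-L1 arrays, 8.95, 8.92 and 8.87 on the PMEF arrays, 9.17, 9.05 and 9.20 on the ES arrays and 9.60, 9.66 and 9.50 in eWAT. 3T3-L1 adipocytes and tissue overlapped at the top, ES adipocytes lay below them, and PMEF adipocytes were lowest. Clock fell in PMEF adipocytes by 0.67 ± 0.07 against eWAT (adjusted p = 2.82e-06), a 1.60-fold difference, and in ES adipocytes by 0.45 ± 0.07 (adjusted p = 0.000121). The 3T3-L1 level differed from eWAT by 0.04, with a 95% confidence interval from -0.11 to 0.19. ES exceeded PMEF adipocytes by 0.23 ± 0.07 (adjusted p = 0.0177). Removing PMEF array 3, ES array 1 or ES array 3 ended that call (adjusted p = 0.058 to 0.0736). With arrays centred on 8 reference (housekeeping) genes, 7 of them called between ES and PMEF adipocytes themselves, the difference turned to -0.12. Its partner Arntl, which is no member of the list, was lowest in PMEF adipocytes as well, at 6.79 ± 0.09 (mean ± SD), against 7.39 ± 0.05 in 3T3-L1, 7.59 ± 0.03 in ES adipocytes and 7.76 ± 0.23 in eWAT. Arntl fell in PMEF adipocytes by 0.97 ± 0.10 against eWAT (adjusted p = 2.11e-06).

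The Period genes encode repressors, and the 3 did not share a pattern. Per1, which also responds quickly to hormones, was at 9.12, 9.09 and 8.98 on the 3T3-L1 arrays, 7.95, 8.05 and 8.08 on the PMEF and 8.52, 8.53 and 8.49 on the ES arrays, and at 7.72, 8.84 and 8.66 in eWAT. The cultures did not overlap with each other, while the tissue arrays spread over most of their range, with array 1 below every culture and arrays 2 and 3 between ES and 3T3-L1. Per1 was higher in 3T3-L1 adipocytes than in PMEF adipocytes by 1.04 ± 0.20 (adjusted p = 0.000675) and than in eWAT by 0.66 ± 0.20 (adjusted p = 0.0145). The difference from eWAT was 0.31 ± 0.08 without eWAT array 1 (adjusted p = 0.005). It missed the threshold on the reference genes (0.43, adjusted p = 0.0748) and with only the arrays of both groups fitted (0.66, adjusted p = 0.0581). PMEF and ES adipocytes were at -0.38 and 0.11 against eWAT and did not pass (adjusted p = 0.148 and 0.708). Without eWAT array 1 both were lower than eWAT, at -0.72 ± 0.08 (adjusted p = 8.88e-06) and -0.24 ± 0.08 (adjusted p = 0.0268), so the ES value changed sign. The call of ES below 3T3-L1 adipocytes, -0.55 ± 0.20 (adjusted p = 0.0429), did not survive the removal of any 1 of the 9 culture arrays (adjusted p up to 0.101), quantile normalization (0.103) or a trended, robust variance (0.0747).

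Per2 was highest in 3T3-L1 adipocytes, at 7.33 to 7.38, and in eWAT, at 6.84, 7.58 and 7.18. It lay at 6.64 to 6.75 in PMEF and 6.79 to 6.84 in ES adipocytes. Both fell against eWAT, by 0.49 ± 0.13 and 0.39 ± 0.13 (adjusted p = 0.00787 and 0.0274). Without eWAT array 2 the PMEF difference was -0.30 ± 0.09 (adjusted p = 0.0206), and the call held. The ES call did not hold when eWAT array 2 (-0.20, adjusted p = 0.11), eWAT array 3 (-0.40, 0.0556) or any 1 ES array (up to 0.0671) was removed, or when only the arrays of both groups were fitted (0.0798).

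Per3 ran the other way. Its values were 7.07, 7.11 and 7.06 on the 3T3-L1 arrays, 8.22, 8.08 and 8.0 on the PMEF and 7.34, 7.23 and 7.30 on the ES arrays, and 7.46, 7.05 and 7.35 in eWAT. Every PMEF array lay above all 9 others, and the other groups lay close together. Per3 rose in PMEF adipocytes by 1.02 ± 0.10 against 3T3-L1 (adjusted p = 8.39e-07), a 2.03-fold difference, and by 0.82 ± 0.10 against eWAT (adjusted p = 1.05e-05). ES adipocytes and eWAT differed by 0.00, with a 95% interval from -0.21 to 0.21.

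The cryptochromes Cry1 and Cry2 encode the stronger repressors of the loop, and Cry1 varied more than Cry2. Cry1 was at 7.39, 7.26 and 7.45 on the 3T3-L1 arrays, 5.92, 6.05 and 6.03 on the PMEF and 6.52, 6.56 and 6.67 on the ES arrays, and at 6.50, 6.44 and 6.51 in eWAT. The 3T3-L1 arrays lay above and the PMEF arrays below all others, and ES adipocytes lay just above tissue. Cry1 had the widest span of group means among the 9 genes, 1.36, against a median span of 0.52 over all genes. It rose by 0.88 ± 0.07 in 3T3-L1 (adjusted p = 2e-07) and fell by 0.48 ± 0.07 in PMEF adipocytes (adjusted p = 0.000101) against eWAT. PMEF adipocytes were 2.57-fold below 3T3-L1 adipocytes (-1.36 ± 0.07, adjusted p = 2.78e-09). The ES level differed from eWAT by 0.10 (95% interval -0.06 to 0.26, adjusted p = 0.303).

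Cry2 spanned 0.39, the least of the 9. It was at 7.73 to 7.99 in 3T3-L1, 7.44 to 7.59 in PMEF, 7.52 to 7.61 in ES adipocytes and 7.75 to 8.19 in eWAT. It fell against eWAT in PMEF adipocytes by 0.39 ± 0.11 (adjusted p = 0.00987) and in ES adipocytes by 0.34 ± 0.11 (adjusted p = 0.0185). The PMEF difference was -0.25 ± 0.09 without eWAT array 1 (adjusted p = 0.0336). Removing that array (-0.20, adjusted p = 0.0729) or ES array 2 (-0.31, adjusted p = 0.0613) ended the ES call.

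The D-box factors divided by sign in the PMEF cultures. Dbp, an activator and a sensitive readout of the clock, was at 7.66, 7.70 and 7.63 on the 3T3-L1 arrays, 8.86, 8.68 and 8.51 on the PMEF and 8.27, 8.11 and 8.07 on the ES arrays, and at 7.50, 7.10 and 7.42 in eWAT. The 4 groups did not overlap, in the order PMEF, ES, 3T3-L1, eWAT, and all 6 differences were called. Dbp rose by 1.34 ± 0.11 in PMEF (adjusted p = 2.71e-07), a 2.53-fold difference, by 0.81 ± 0.11 in ES (adjusted p = 3.3e-05) and by 0.32 ± 0.11 in 3T3-L1 adipocytes (adjusted p = 0.024) against eWAT. The last of these missed the threshold without eWAT array 2 (0.20, adjusted p = 0.12), without 3T3-L1 array 1 or 2 (adjusted p = 0.0517 and 0.0671), with quantile normalization (0.25, adjusted p = 0.0536) and on the reference genes (0.10, adjusted p = 0.461).

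Tef, a close relative of Dbp, was at 7.63, 7.64 and 7.64 on the 3T3-L1 arrays, 8.06, 8.23 and 8.15 on the PMEF and 7.58, 7.63 and 7.58 on the ES arrays, and at 7.67, 7.35 and 7.53 in eWAT. Only the PMEF arrays stood apart, above all others. Tef rose there by 0.63 ± 0.08 against eWAT (adjusted p = 2.45e-05) and by 0.51 ± 0.08 against 3T3-L1 adipocytes (adjusted p = 0.000122). Hlf, the third of these activators and no member of the list, was highest in tissue instead. It was at 6.72, 6.41 and 6.25 in eWAT and fell in all 3 cultures, most in 3T3-L1 adipocytes, by 1.11 ± 0.10, then PMEF adipocytes, by 0.63 ± 0.10, and ES adipocytes, by 0.50 ± 0.10 (adjusted p = 4.84e-07, 0.000146 and 0.000847).

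Nfil3, the repressor at the same element, was at 8.08, 8.14 and 8.14 on the 3T3-L1 arrays, 6.98, 6.66 and 6.98 on the PMEF and 8.10, 8.10 and 8.17 on the ES arrays, and at 6.85, 7.46 and 7.55 in eWAT. 3T3-L1 and ES adipocytes overlapped above tissue, and PMEF adipocytes overlapped with eWAT array 1 alone. Nfil3 was lower in PMEF than in 3T3-L1 adipocytes by 1.25 ± 0.15, a 2.38-fold difference (-1.25, adjusted p = 7.14e-06). Against eWAT it rose by 0.83 ± 0.15 in 3T3-L1 (adjusted p = 0.000267) and by 0.84 ± 0.15 in ES adipocytes (adjusted p = 0.000323). It fell by 0.42 ± 0.15 in PMEF adipocytes (adjusted p = 0.0338). That last call ended with the removal of PMEF array 2 (adjusted p = 0.141), eWAT array 2 (0.13) or eWAT array 3 (0.15), with only the arrays of the groups compared (0.0888) and on the reference genes (0.0645), and the difference was -0.64 ± 0.10 without eWAT array 1 (adjusted p = 0.000132).

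Counted by comparison against tissue, 4 of 9 clock genes rose and 0 fell in 3T3-L1 adipocytes, where 53.3% of all genes were called (30.8% higher and 22.5% lower). At an unadjusted p under 0.05, 0 of the 9 were lower as well. In PMEF adipocytes 3 rose and 5 fell, where 46.3% of all genes were called (24.7% higher and 21.6% lower). In ES adipocytes 2 rose and 3 fell, where 49.7% were called (28.8% higher and 20.9% lower). The shares of clock genes in 3T3-L1 and ES adipocytes, 44.4% and 55.6%, were near those of all genes. With each array centred on its median over the 19938 genes analysed, 7 of the 9 genes rose in 3T3-L1 adipocytes. On the reference genes 2 rose (Cry1 and Nfil3) and 1 fell (Per3, -0.43 ± 0.10, adjusted p = 0.00176). Per3 was also called lower without eWAT array 2 (-0.32 ± 0.08, adjusted p = 0.00491). The median absolute difference of the 9 genes was 0.20, 0.49 and 0.34 in 3T3-L1, PMEF and ES adipocytes, against 0.27, 0.22 and 0.24 over all genes. The 3 comparisons share the eWAT arrays.

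**Figure D2:**
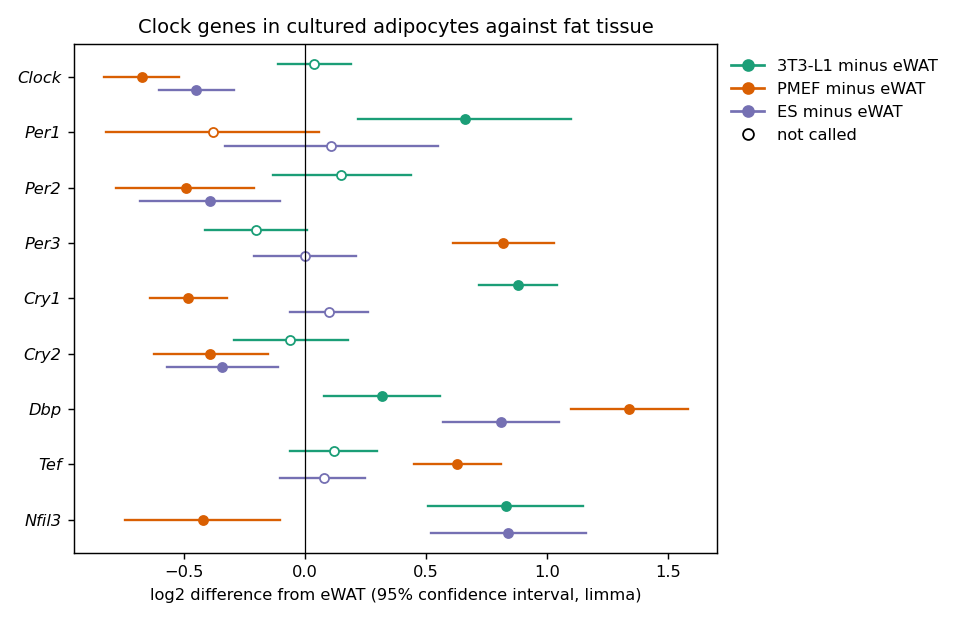
Log2 difference of each clock gene from eWAT (x axis) in 3T3-L1, PMEF and ES adipocytes, with 95% confidence intervals from limma; open points did not pass the test. The PMEF points run from -0.67 for Clock to 1.34 for Dbp, while 5 of the 9 3T3-L1 points are open.

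Between the cultures, all 9 clock genes were called between PMEF and 3T3-L1 adipocytes, 3 higher and 6 lower in PMEF, where 50.1% of all genes were called (22.3% higher and 27.8% lower). The Cry2 call, -0.33 ± 0.11 (adjusted p = 0.0219), was the weakest and did not hold under quantile normalization (0.083), on the reference genes (0.912) or without 3T3-L1 array 3 or PMEF array 3 (0.0954 and 0.0815). At least 2-fold differences numbered 5 of the 9, against 12.5% of all genes (7.32% higher and 5.21% lower): Per3 and Dbp were higher and Per1, Cry1 and Nfil3 lower. The median absolute difference was 1.02 for the 9 genes and 0.25 for all genes. In ES against 3T3-L1 adipocytes 1 gene (Dbp) was higher and 4 (Clock, Per1, Per2 and Cry1) were lower, where 43.4% of all genes were called (20.4% higher and 23% lower). In ES against PMEF adipocytes 3 were higher (Clock, Cry1 and Nfil3) and 3 lower (Per3, Dbp and Tef), where 42.6% were called (23.6% higher and 19% lower). Nfil3 did not pass between ES and 3T3-L1 adipocytes, with a difference of 0.00 and a 95% interval from -0.32 to 0.32.

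**Figure D3:**
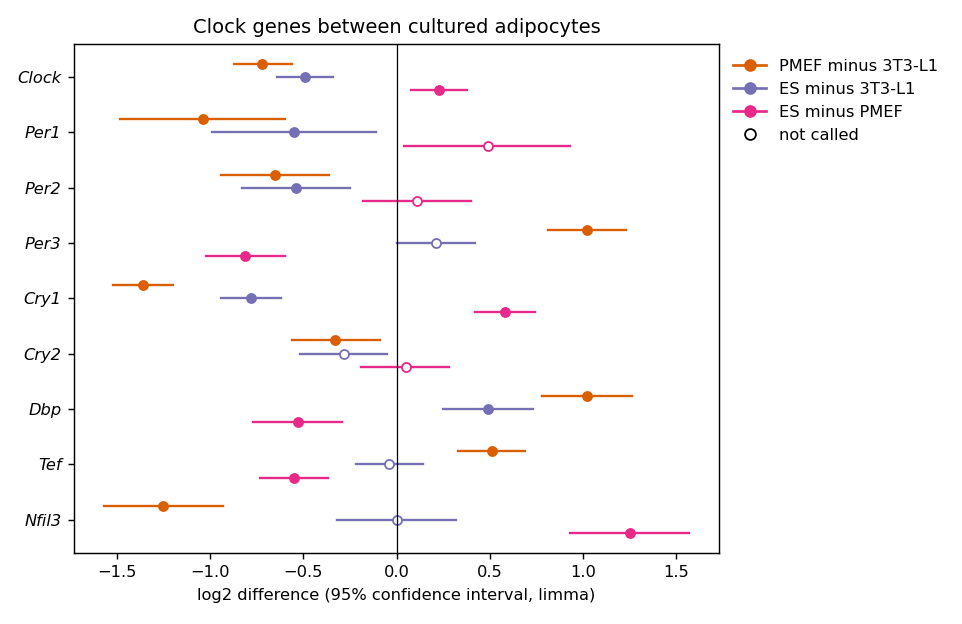
Log2 differences of the 9 clock genes between pairs of cultured adipocytes (x axis) with 95% confidence intervals from limma; open points did not pass the test. PMEF minus 3T3-L1 runs from -1.36 for Cry1 to 1.02 for Per3 and Dbp.

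Other gene groups differed between the same cultures, and their part in the clock gene differences was not tested. Of all genes, 22.3% were called higher and 27.8% lower in PMEF than in 3T3-L1 adipocytes. Of 9 fibroblast and matrix genes, 9 were higher in PMEF than in 3T3-L1 adipocytes, with array averages of 11.84 to 11.86 and 8.78 to 8.82. The list averaged 10.05 to 10.11 in ES adipocytes and 10.20 to 10.34 in eWAT. Of 12 genes that respond to glucocorticoids, which induce Per1 among others, 9 were lower and 1 higher in PMEF than in 3T3-L1 adipocytes. The 1 higher was Nr3c1, the gene of the glucocorticoid receptor (0.80 ± 0.08, adjusted p = 8.4e-07). The 12 genes averaged 8.82 to 8.85 in PMEF, 9.84 to 9.90 in 3T3-L1, 8.95 to 9.01 in ES adipocytes and 9.37 to 9.94 in eWAT. The largest of these differences were in Hsd11b1 (-4.12, adjusted p = 1.66e-13), Dusp1 (-1.56, 1.14e-08) and Pdk4 (-1.55, 4.62e-09). Fkbp5, a chaperone partner of the glucocorticoid receptor, was 0.95 ± 0.28 lower in PMEF than in 3T3-L1 adipocytes (-0.95, adjusted p = 0.0111), and Klf9, a hormone-induced transcription factor, was 0.96 ± 0.16 lower (-0.96, adjusted p = 0.000131). Of 15 immediate early (fast-responding) genes, 8 were lower and 2 higher in PMEF than in 3T3-L1 adipocytes. The largest of their differences was in Atf3 (-4.87, adjusted p = 1.03e-12).

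The tissue arrays varied more in clock genes than the cultures did. The SD of the 3 eWAT arrays had a median of 0.21 over the 9 clock genes and 0.11 over all genes, and 7 of the 9 lay above the latter. In the cultures the median SD of the 9 was 0.04 (3T3-L1), 0.08 (PMEF) and 0.05 (ES), below the all-gene medians of 0.09, 0.11 and 0.08. Per1 had an SD of 0.60 in eWAT, larger than that of 99.3% of genes, Nfil3 of 0.38 (97.2%) and Per2 of 0.37 (97%). Cry1 and Clock had SDs of 0.04 and 0.08, larger than those of 8.65% and 32.2%.

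The eWAT array that lay apart differed between genes. Array 1 lay apart from both others in Per1, Nfil3 and Cry2. Array 2 was the lowest in Per3 (7.05), Dbp (7.10) and Tef (7.35), and Per2 ran from 6.84 on array 1 to 7.58 on array 2. Against the mean of arrays 2 and 3, array 1 was lower in Per1 (-1.03), Nfil3 (-0.65) and Per2 (-0.54), and higher in Cry2 by 0.41, Per3 by 0.26, Dbp by 0.24 and Tef by 0.23. The median over all genes was 0.02. The same array was lower in several glucocorticoid-responsive genes, with Fkbp5 at -1.42, the metallothionein gene Mt2 at -1.40, Errfi1, an inhibitor of growth factor receptors, at -1.34 and Klf9 at -0.76, and a median of -0.52 over the 12 genes. Others of the 12 were not lower there, with Pdk4 at 0.31, Nr3c1 at 0.24, Hsd11b1 at 0.15 and Dusp1 at 0.03. Array 1 was lower in all 10 macrophage markers too, with Adgre1 at -1.21 and a median of -0.91. The 11 adipocyte markers had a median of 0.04, with Lep at 1.04, Plin1 and Slc2a4 at 0.26 each and Fabp4 at -0.00, and the 10 endothelial markers a median of 0.24. These are single arrays with no replicate of the difference, and the part of these gene groups in the clock gene spread was not tested.

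**Figure D4:**
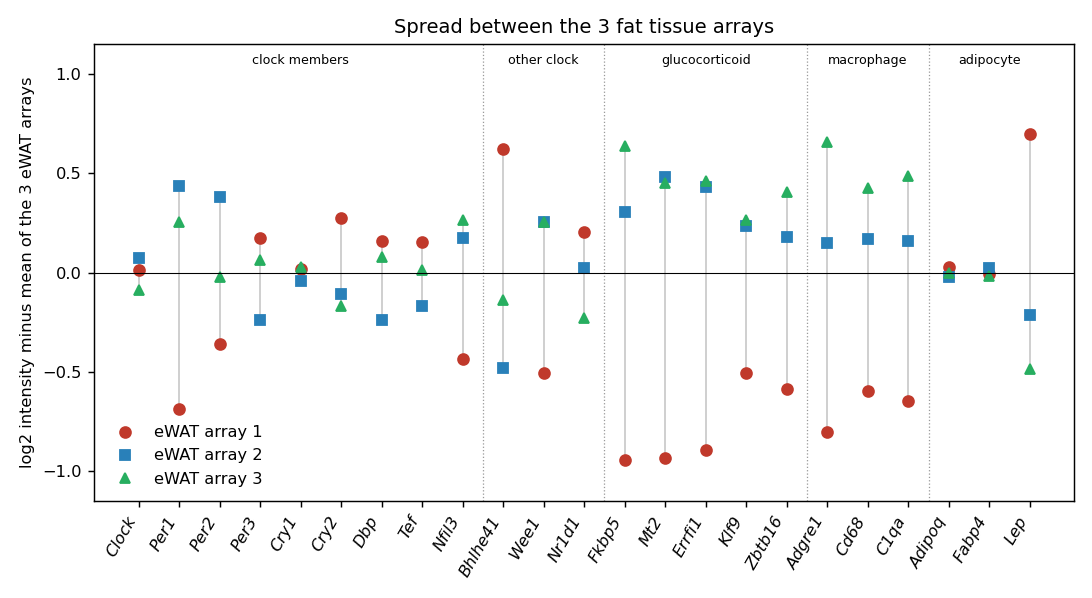
Log2 intensity of each eWAT array minus the mean of the 3 (y axis) for the clock genes and for selected genes of other lists (x axis). Array 1 is lowest for Per1, Per2 and Nfil3, for the glucocorticoid-responsive genes and for the macrophage markers shown, highest for Lep, and close to the other arrays for Adipoq and Fabp4.

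Of 24 further clock genes (partners, receptors, kinases, ligases and outputs), 22 were measured. In 3T3-L1 adipocytes 14 rose and 4 fell against eWAT, where 30.8% of all genes rose and 22.5% fell. In PMEF adipocytes 8 rose and 4 fell, where the shares of all genes were 24.7% and 21.6%. In ES adipocytes 11 rose and 4 fell, where they were 28.8% and 20.9%. The share called in PMEF adipocytes, 54.5%, was near the 46.3% of all genes. Nr1d1, the REV-ERB receptor that represses Arntl, was at 11.30, 11.12 and 10.87 in eWAT and between 9.75 and 10.05 on every culture array. It fell by 1.21 ± 0.10, 1.24 ± 0.10 and 1.13 ± 0.10 in 3T3-L1, PMEF and ES adipocytes (adjusted p = 1.71e-07, 1.98e-07 and 5.06e-07), and the cultures did not differ from each other by the test (adjusted p = 0.422 to 0.808). Nr1d2, its relative, did not follow: it rose by 0.43 ± 0.08 in 3T3-L1 and by 0.35 ± 0.08 in PMEF adipocytes (adjusted p = 0.000468 and 0.00268).

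Ciart, a repressor of the CLOCK and BMAL1 pair, had the largest differences of these genes. It was at 5.56, 5.21 and 5.24 in eWAT, near the upper olfactory receptor level, and at 8.18 to 8.58 on the 3T3-L1 arrays, 6.67 to 6.85 on the PMEF and 7.38 to 7.78 on the ES arrays. Ciart rose by 3.11 ± 0.14, 1.43 ± 0.14 and 2.19 ± 0.14 in that order (adjusted p = 2.85e-10, 1.15e-06 and 1.85e-08). A second probe set of Ciart kept the order, with means of 7.82, 6.16, 6.64 and 5.42 in 3T3-L1, PMEF, ES adipocytes and eWAT. Its window held 3 E-box matches. The repressors Bhlhe40 and Bhlhe41 bind E-boxes too. Bhlhe41 rose in all 3 cultures, by 2.23 ± 0.22, 0.75 ± 0.22 and 0.79 ± 0.22 (adjusted p = 9.76e-07, 0.012 and 0.00766), although its PMEF and eWAT arrays overlapped. Its eWAT values were 6.18, 5.08 and 5.42, near the upper olfactory receptor level on array 2. Bhlhe40 rose by 1.01 ± 0.15 in 3T3-L1 and 1.23 ± 0.15 in ES adipocytes (adjusted p = 4.49e-05 and 1.03e-05) and was at 0.10 in PMEF adipocytes (adjusted p = 0.596).

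Among these 22 genes, whose set apart calls were not checked in the alternative settings, 3T3-L1 adipocytes had the most set apart. There, 8 were higher than in each other group (Arntl2, Rora, Bhlhe41, Ciart, Csnk1e, Btrc, Gsk3b and Wee1), where 14.5% of all genes were, and 1 was lower (Hlf), where 8.63% were. In PMEF adipocytes 2 were set apart as the lowest (6.31% of all genes), Arntl and Noct, a phosphatase gene with a strong daily rhythm in many tissues. Noct was at 8.16 ± 0.16 there (mean ± SD), against 8.96 ± 0.04 in 3T3-L1, 8.76 ± 0.11 in ES adipocytes and 8.63 ± 0.08 in eWAT. Of the 22, 0 were set apart there as the highest (8.47% of all genes). ES adipocytes had 3 higher (Rorb, Csnk1d and Fbxw11), where 6.15% of all genes were, and 2 lower (Arntl2 and Btrc), where 3.36% were. Rorb lay near the upper olfactory receptor level, with a mean of 5.83 in ES adipocytes and of 4.75 to 5.21 in the other groups. In eWAT 2 were higher (Nr1d1 and Hlf), where 10.7% of all genes were, and 3 lower (Bhlhe41, Ciart and Tipin), where 10.3% were. The eWAT counts were near the shares of all genes. Rora, the activating counterpart of Nr1d1 on Arntl, was lower in PMEF than in 3T3-L1 adipocytes by -0.90 ± 0.07 (adjusted p = 6.44e-08) and at -0.15 against eWAT (adjusted p = 0.0922). The kinases that mark PER proteins for decay varied less. Csnk1d rose in ES adipocytes by 0.70 ± 0.07 (adjusted p = 1.22e-06) and Csnk1e in 3T3-L1 adipocytes by 0.59 ± 0.08 (adjusted p = 1.91e-05) against eWAT. Wee1, a cell cycle kinase gene under clock control, rose by 1.09 ± 0.16 in 3T3-L1 and 0.66 ± 0.16 in PMEF adipocytes (adjusted p = 3.96e-05 and 0.00338). Its eWAT values were 6.57, 7.33 and 7.33, with array 1 lowest as for Per1.

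**Figure D5:**
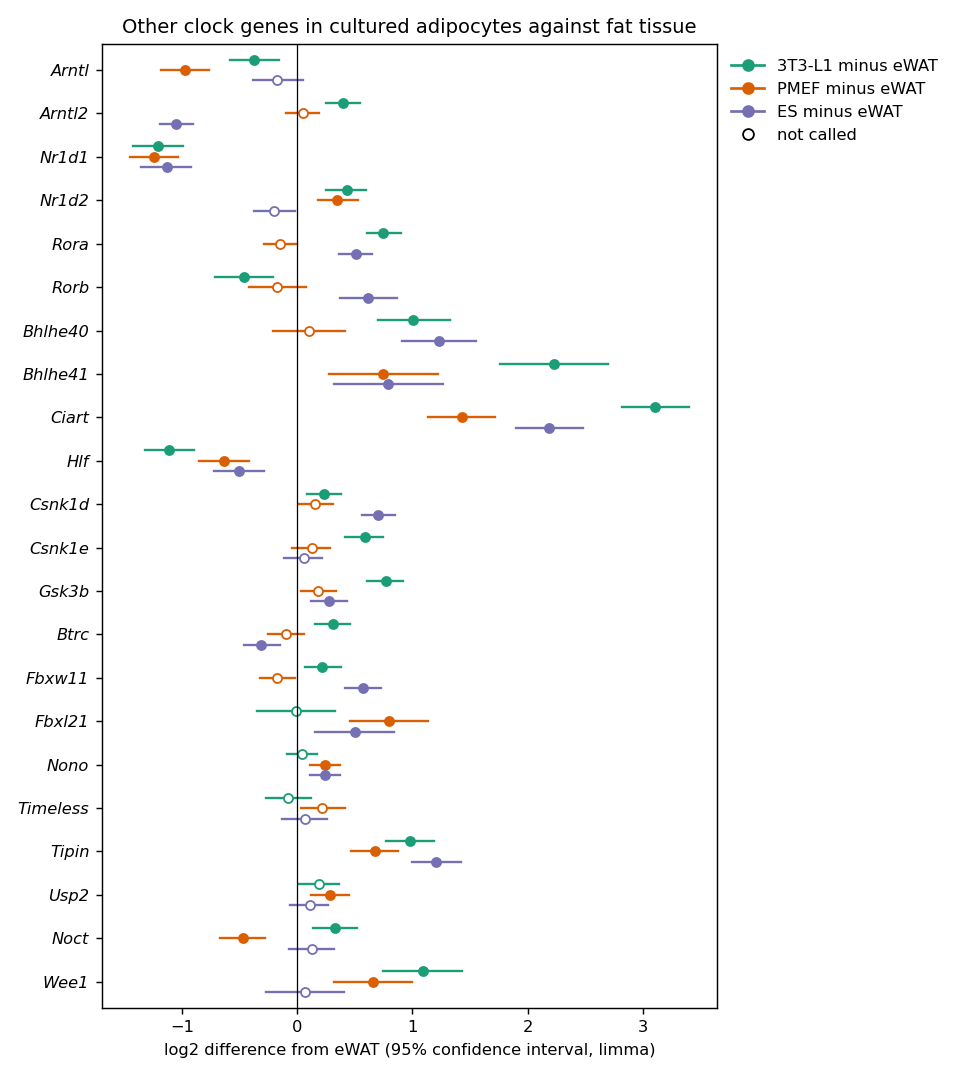
Log2 difference from eWAT (x axis) of the 22 other clock genes in 3T3-L1, PMEF and ES adipocytes, with 95% confidence intervals from limma; open points did not pass the test. Nr1d1 and Hlf lie below and Ciart, Bhlhe41 and Tipin above tissue in all 3 cultures.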

How the data were processed

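Per the labels' protocols, RNA was extracted with TRIzol and biotinylated cDNA for Affymetrix arrays used 300 ng of total RNA per sample. The deposited table holds log2 intensities for 35556 probe sets. Array medians over all probe sets lie close together. The authors' normalization and software are not stated in the labels used here, and the log2 base was read from the range, 1.11 to 13.48. Values were used as deposited, with no detection calls and no filter on dim genes. The array annotation, updated to RefSeq symbols by Entrez ID, gave 21789 probe sets with 1 symbol, 1621 with several and 12146 with none; the brightest of a gene's single-symbol probe sets stood for it, which left 19938 genes.

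The 4 group means were estimated with limma 3.58.1 in R 4.3.3 (8 residual and 4.88 prior degrees of freedom), after a test on simulated data. The number of arrays limits the precision. Set apart means called the same way against each of the other 3 groups. The text could name all members, any other clock gene, and up to 3 called genes of largest difference per context list and comparison. Genes of similar profile were to be named only for members spanning 2 or more log2 units, and none did. Further genes, among them Fkbp5, Klf9 and those named for eWAT array 1, were chosen after their values were seen. Members and lists were chosen with earlier results of these data known.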

Additional observations from a re-analysis of the deposited data

Results flagged for a closer look

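The difference from eWAT of 2 clock genes was called in opposite directions in 2 cultures, and the cultures differed from each other in the limma fit; the comparisons share the eWAT arrays. Cry1 was at 0.88 in 3T3-L1 and -0.48 in PMEF adipocytes against eWAT, a difference of -1.36 between PMEF and 3T3-L1 (adjusted p = 2.78e-09), with all 3 PMEF arrays below all 3 3T3-L1 arrays. Nfil3 was at 0.83 in 3T3-L1, 0.84 in ES and -0.42 in PMEF adipocytes, with -1.25 between PMEF and 3T3-L1 (adjusted p = 7.14e-06) and 1.25 between ES and PMEF (adjusted p = 1.21e-05), again with no overlap of arrays.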

How the results depend on the processing

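Of 540 differences of single clock genes under 10 settings, 510 kept their side of the threshold, 11 lost their call, 16 gained one and 3 changed sign. A sign change was counted only where the difference was called in the main fit or in the setting. Uncalled differences could change sign without being counted, as did Per2 in ES against PMEF (-0.25 to 0.13 over all settings). With 1 array left out, 611 of 648 were kept, 27 lost, 9 gained and 1 changed sign. The sign changes counted were Per3 in ES against eWAT (-0.26), Clock (-0.12) and Cry2 (-0.31) in ES against PMEF, all with arrays centred on the reference genes, and Per1 in ES against eWAT without eWAT array 1 (-0.24). The reference genes differed between groups themselves. Of the 8, 5 were called higher and 2 lower in ES than in PMEF adipocytes, and 4 higher and 2 lower in ES than in eWAT. Pgk1 among them had means of 12.35 in ES adipocytes, 10.51 in PMEF adipocytes and 10.41 in eWAT. The causes of the sign changes were not tested. Among calls that held, those that moved by over 1.5 times with centring include Clock in ES against eWAT (-0.71 on the reference genes) and Tef in PMEF against 3T3-L1 (0.82 on the reference genes, 0.29 on medians). Counts of called clock genes moved by over 1.5 times with arrays centred on their medians (7 in 3T3-L1 against eWAT, from 4) and with 1 array left out (3 to 5 in ES against eWAT, 3 being without ES array 2). All other counts of the 9 and the 22 genes called in either direction stayed within 1.5 times. Counts by direction, of genes set apart and of at least 2-fold differences were not judged by this limit. Counts by direction could move more, as given above for 3T3-L1 adipocytes on the reference genes.

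Centring on each array's median over the 19938 genes moved their median difference between 3T3-L1 and eWAT from 0.05 to 0.26. The share of higher calls moved from 57.8% to 77.1%. Centring on the 8 measured reference genes moved the medians to -0.18, 0.13 and -0.23 in 3T3-L1, PMEF and ES against eWAT, and to 0.32, -0.06 and -0.37 in PMEF and ES against 3T3-L1 and ES against PMEF. The share of higher calls became 32.2%, 65.9% (from 53.4%) and 23.6% (from 58%) against eWAT, 79.3% (from 44.6%) in PMEF against 3T3-L1 and 12% (from 55.4%) in ES against PMEF. Median centring gave 23.6% in PMEF and 21.7% (from 47.1%) in ES against 3T3-L1.

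With the replicate number as a block, the counts of the 9 genes were 4, 8 and 5 against eWAT and 9, 5 and 6 between cultures, as without it. The labels state no pairing, and same-numbered arrays did not deviate together (correlations -0.14 to 0.11 over 18 pairs, 1 above 0.1). Over all genes the number of calls did change with the block, for example from 9225 to 9009 in PMEF against eWAT.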
